A study of Sus scrofa with 61 samples.

Results

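Skeletal muscle of the fetal pig takes up, makes and stores fatty acids through a chain of proteins, of which 10 genes are described here: CD36, LPL, FABP3, FABP4, FABP5, FASN, SCD, DGAT2, PLIN2 and ADIPOQ. A probe was taken as a member where the array's gene name, or the symbol printed for that probe in the study's gene lists, was 1 of these symbols. Of the 11590 gene symbols on the array, these 10 had 62 of the 60305 probes, 59 of them named by the array and 3 by the lists only. Those lists hold probes that the study found to differ in these same arrays. A difference at the 3, which are LPL and FABP5 probes, is therefore not further support. Of the 62 probes, 60 were tested, being well above background in 1 group or more on 80% or more of its arrays. The other 2, a FASN and a SCD probe, were left out of the fits.

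RNA of the longissimus muscle of 61 fetuses was measured on 1-colour arrays, with 1 array per fetus. The 4 genotypes were purebred Large White (LW), purebred Meishan (MS), a fatter breed, LWMS (MS sow, LW boar) and MSLW (LW sow, MS boar). Samples came from 90 and 110 days of gestation. Every genotype had 8 fetuses at day 90, while at day 110 there were 9 of LW, 7 of MS, 8 of LWMS and 5 of MSLW. All fetuses were males taken by caesarean, and the sows received semen of both breeds, so that a litter held purebred and crossbred fetuses. A LW or MSLW fetus therefore always developed in a LW sow and a MS or LWMS fetus in a MS sow. Which fetuses were littermates was not used here, each is treated as a separate animal, and the p-values cover the spread between fetuses only. Littermates share a sow and an age, so a difference between ages is also one between sows. The same holds for LW against MS, for LWMS against MSLW and for a difference by maternal genotype. The p-values take no account of that.

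Fatty acids reach a muscle cell from triglyceride-rich lipoproteins, which lipoprotein lipase splits at the capillary wall, or bound to albumin, and they enter with the help of membrane proteins such as CD36. In the cytoplasm they are carried by fatty acid binding proteins, and they are burned in mitochondria or built into triglyceride that is kept in droplets coated with perilipins. Muscle also holds fat cells between its fibres, which make adiponectin and FABP4, although FABP4 is also made by capillary endothelium. An array of whole muscle cannot tell fewer cells of a type from less RNA per cell.

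Values are normalized log2 intensities, and a difference of 1 is a doubling. The main probe of a gene is its brightest tested probe by the mean of the 61 arrays, and its further probes appear as counts and ranges. Levels of different probes were not set against each other. Differences were tested with limma over 42435 probes and called at an adjusted p under 1% (Benjamini-Hochberg). At their main probes, all 10 genes were well above background on every array of every group.

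Several probes of a gene read the same stretch of its transcript and are not independent measurements. The sequences below show the cases on which results turn. They are windows of 30 bases out of 60-base probes, written 5′ to 3′ as the scanner files give them. Capitals mark bases shared with another probe of the gene or, in the FASN pair, complementary to it. The first pair are ADIPOQ probes that share 26 bases, followed by an ADIPOQ probe that shares no stretch of 15 or more bases with them.
ADIPOQ A_72_P736683 (main), bases 16 to 45: gaCAACAGCTTGAGTGATACTCTTCAAAgt
ADIPOQ A_72_P503732, bases 1 to 30: CAACAGCTTGAGTGATACTCTTCAAAagtt
ADIPOQ O15012, bases 16 to 45: aaacccatgaagcaatttggaaacccttct
Of the 5 FABP5 probes, 4 hold a common stretch of 51 bases and the main probe reads another place, so that the gene was measured at 2 places.
FABP5 A_72_P165231, bases 6 to 35: ATTAGTTGTGAGGATGAACAAGCTCAGTTC
FABP5 A_72_P623937 (main), bases 16 to 45: ctatgaaaaagtagagtgaaattccctcat
The CD36 main probe, whose breed difference went against that of the other probes, shared no such stretch with any of them.
CD36 A_72_P569934 (main), bases 16 to 45: tggcaacttcagaacgctgtctagtattaa
CD36 A_72_P441753, bases 16 to 45: tttgagtttctttctctatggaaaccatag
A pair of FASN probes were complementary over 35 bases, so that only 1 of them can match the transcript's strand. The first was among the tested probes and the second was 1 of the 2 that were not.
FASN A_72_P175196, bases 1 to 30: ATGATAGGCTGCCAGCGCGCCATGATGGCC
FASN O15017, bases 31 to 60: GGCCATCATGGCGCGCTGGCAGCCTATCAT

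Between day 90 and day 110, LPL, FABP3 and PLIN2 rose in all 4 genotypes, CD36 rose in 3 of them, and FASN fell in all 4. In LW fetuses, 4 of the 10 main probes rose (LPL, FABP3, CD36 and PLIN2), against 21.8% of all probes, and 1 fell (FASN), against 23.5%. In MS fetuses the same 4 rose, against 28.6% of all probes, and 4 fell (FASN, SCD, FABP5 and ADIPOQ), against 28.1%. In LWMS fetuses the same 4 rose (25.1% of all probes) and FASN, FABP4 and FABP5 fell (25.7%). In MSLW fetuses LPL, FABP3 and PLIN2 rose (20.8% of all probes) and FASN fell (23.8%). In either direction 45.3% of all probes were called in LW and 56.7% in MS, so a called change was common. LPL enters these counts by a main probe that only the study's lists name, so its rise there is not further support.

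**Figure D1:**
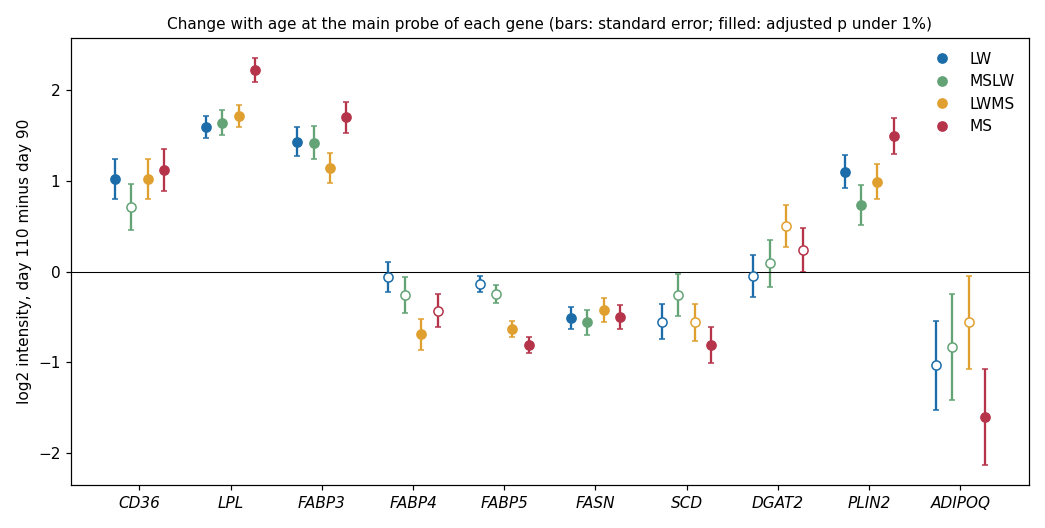
Change in log2 intensity from day 90 to day 110 (vertical axis) at the main probe of each gene in the 4 genotypes (colours), with the standard error as bars and filled points where the adjusted p was under 1%. LPL, FABP3, CD36 and PLIN2 sit above 0 in all genotypes, FASN sits below 0 in all, and LPL has its largest change, 2.22, in MS.

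LPL, which encodes lipoprotein lipase, had the largest change of the 10 main probes in each genotype. In LW fetuses its main probe ran from 13.22 to 13.62 (median 13.36) at day 90 and from 14.59 to 15.62 (median 14.92) at day 110. In MS fetuses it ran from 12.67 to 13.30 (median 12.94) at day 90 and from 14.65 to 15.54 (median 15.21) at day 110. The ages did not overlap in any of the 4 genotypes. The rise was 1.59 ± 0.12 (SE) in LW and 2.22 ± 0.13 in MS, or 3.02-fold and 4.65-fold, with adjusted p-values of 1.32e-17 and 1.33e-22. It was 1.71 ± 0.12 in LWMS and 1.64 ± 0.14 in MSLW. All 9 LPL probes rose in every genotype, by 1.59 to 1.93 in LW and by 2.22 to 2.98 in MS. Of these, the O15020 probe was well above background on only 5 or 6 of the 8 arrays of each genotype at day 90 and was kept through its day 110 signal, so that its rise is not further support. The main probe and the A_72_P514668 probe carry the LPL symbol in the study's lists but not in the array's own annotation. Their rise is therefore not further support, but the 7 LPL probes named by the array, O15020 among them, also rose in every genotype. The brightest probe that the array itself names LPL differed in age change between MS and LW by 0.86, in the same direction.

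The LPL rise was larger in MS than in LW at most probes. The difference between the 2 age changes was 0.62 ± 0.17 at the main probe and missed the threshold (adjusted p = 0.0106), while 7 of the other 8 probes passed it, with differences up to 1.1. Among these 8, the A_72_P514668 probe is named by the study's lists only and the O15020 probe was kept through its day 110 signal, so neither is further support. The brightest probe named LPL by the array gave 0.86 (adjusted p = 0.00569). Over all probes, 2.56% were called in that direction. At day 90 the MS level of LPL lay 0.44 below that of LW at the main probe (-0.44 ± 0.12, adjusted p = 0.00572), and 6 of 9 probes were lower, against 6.61% of all probes. The main probe and the A_72_P514668 probe among these 9 are named by the study's lists only and are not further support. LW and MS fetuses overlapped at the main probe at that age. Without the MS array that had the fewest probes above background, the day 90 difference was -0.43 with an adjusted p of 0.0107. At day 110 the main probe differed by 0.18 ± 0.12 (adjusted p = 0.238) and the 9 probes by 0.18 to 0.71, of which 2 were called higher in MS, against 13.7% of all probes. Scaling each array to its 75th percentile in place of quantile normalization gave 0.87 for the difference in age change (adjusted p = 0.0012), 0.45 for day 110 (adjusted p = 0.00631) and -0.42 for day 90 (adjusted p = 0.0211). Over all probes, that scaling moved the calls of the difference in age change from 1085 higher and 1439 lower to 2013 higher and 1149 lower.

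FABP3 encodes the binding protein of heart and skeletal muscle fibres. At day 90 its main probe ran from 13.85 to 14.42 (median 14.07) in LW and from 14.15 to 14.69 (median 14.39) in MS. At day 110 it ran from 15.13 to 16.22 (median 15.61) in LW and from 15.57 to 16.28 (median 16.14) in MS. The ages did not overlap in any genotype, and the breeds overlapped at both ages. FABP3 rose by 1.70 ± 0.17 in MS and by 1.43 ± 0.16 in LW, and in the crosses by 1.42 ± 0.18 (MSLW) and 1.14 ± 0.16 (LWMS), and all 5 probes rose in every genotype. At day 110 all 5 probes were above LW in MS, by 0.53 to 0.65 (main probe 0.54 ± 0.16, adjusted p = 0.00585), against 13.7% of all probes. At the main probe this call was lost, at nearly the same size, with the median signal of the spot (0.52, adjusted p = 0.0172), and scaling to the 75th percentile gave 0.83 (adjusted p = 0.000199).

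CD36 encodes a fatty acid translocase of muscle fibres, fat cells and capillaries. At day 90 its main probe held LW fetuses between 13.27 and 13.66 (median 13.48), whereas MS fetuses spread from 11.55 to 14 (median 13.40). Of the 8 MS fetuses, 2 lay at 11.55 and 11.71 and the other 6 at 13.11 or above. At day 110 LW fetuses ran from 14.23 to 14.90 (median 14.41) and MS fetuses from 13.64 to 14.82 (median 14.34). The rise with age was 1.02 ± 0.22 in LW, 1.12 ± 0.23 in MS and 1.02 ± 0.22 in LWMS, and the MSLW value, 0.71 ± 0.25, missed the threshold (adjusted p = 0.0153). Without the MSLW fetus at 13.53, the lowest of its group at day 110, it was 0.87 (adjusted p = 0.00508). Over 17 alternatives the MSLW rise ran from 0.6 to 1.12. Of these, 14 left it uncalled, and the fit without that fetus was among the 3 that did not. In LW, MS and LWMS all 5 probes rose. In MSLW the 4 others did, by 0.65 to 1.14.

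The CD36 probes did not give the same breed difference. At day 90 the 4 other probes were all higher in MS than in LW, by 0.38 to 0.57, against 6.23% of all probes. The main probe gave -0.35 ± 0.22 (adjusted p = 0.302). In MS fetuses of day 90 the SD of the main probe was 0.96, and that of the other 4 probes was 0.14 to 0.24. At day 110 the other 4 probes differed by 0.09 to 0.54, with 2 called higher in MS, against 13.7% of all probes, and the main probe by -0.25 ± 0.22.

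**Figure D2:**
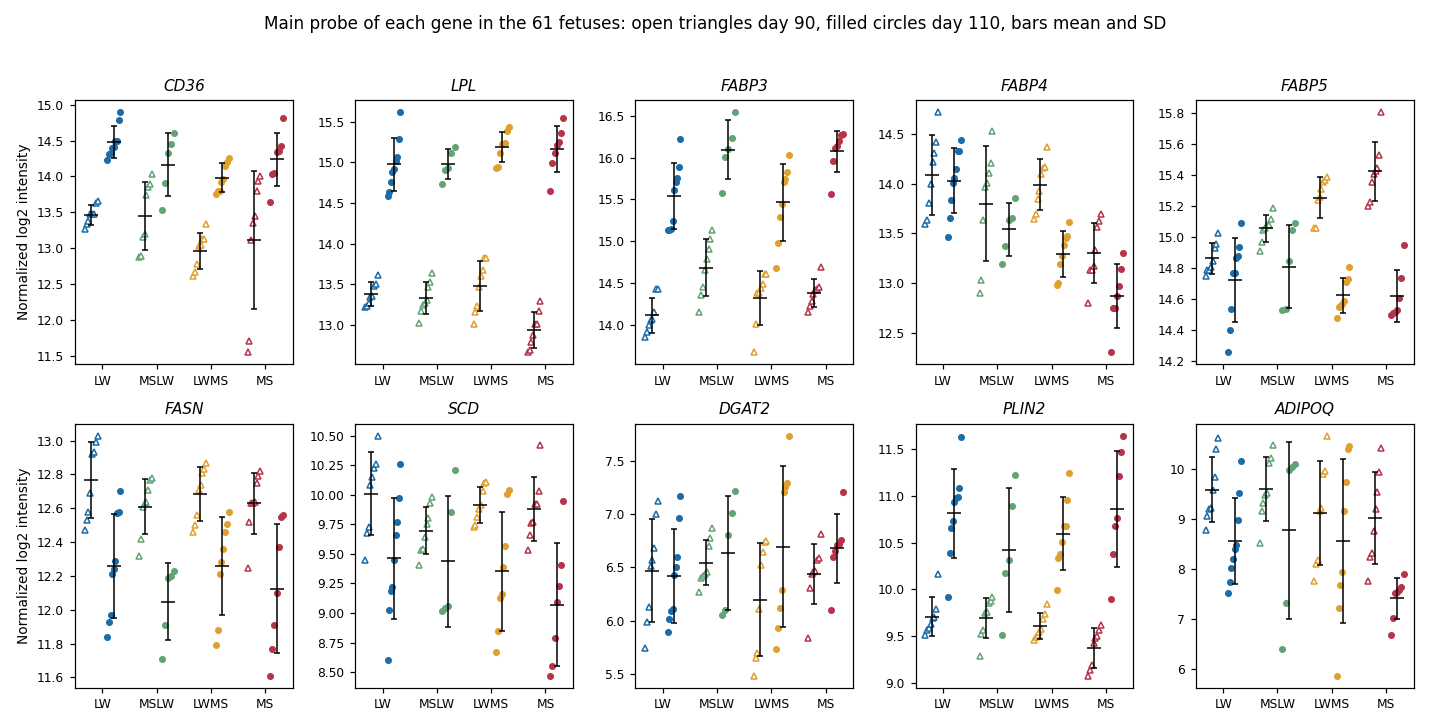
Normalized log2 intensity (vertical axes, 1 panel per gene) of the main probe in each of the 61 fetuses, by genotype (colours), with open triangles for day 90, filled circles for day 110 and black bars for the mean and SD. LPL and FABP3 separate the ages in all genotypes, 2 MS fetuses of day 90 sit apart in CD36, and ADIPOQ spreads from 5.87 to 10.45 within LWMS at day 110.

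PLIN2 encodes the droplet coat protein found in most cell types, muscle fibres included. In LW it ran from 9.51 to 10.17 (median 9.66) at day 90 and from 9.92 to 11.62 (median 10.93) at day 110, where the ages overlapped. In MS it ran from 9.08 to 9.62 (median 9.45) and from 9.90 to 11.64 (median 10.76), with no overlap. PLIN2 rose by 1.49 ± 0.20 in MS and by 1.1 ± 0.18 in LW, and in the crosses by 0.99 ± 0.19 (LWMS) and 0.73 ± 0.22 (MSLW). The second PLIN2 probe was well above background on 1 to 4 of the 8 arrays of each genotype at day 90 and was kept only through MS at day 110, so its change with age rests on background and is not used. The main probe did not pass the threshold between MS and LW at either age (-0.33 at day 90 and 0.05 at day 110). The 5 MSLW fetuses of day 110 had 11.22, 10.31, 9.51, 10.89 and 10.18. The MSLW rise was 0.53 without the first of these (adjusted p = 0.0444) and 0.61 without the fourth (adjusted p = 0.0234).

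FABP4, the binding protein of fat cells and capillary endothelium, was lower in MS than in LW at both ages. At day 90 its main probe ran from 13.59 to 14.72 (median 14.11) in LW and from 12.80 to 13.69 (median 13.25) in MS. At day 110 it ran from 13.46 to 14.44 (median 14.06) in LW and from 12.31 to 13.30 (median 12.87) in MS, with no overlap. MS was lower by 0.78 on the log2 scale at day 90 (-0.78 ± 0.17, adjusted p = 0.000564) and by 1.16 at day 110 (-1.16 ± 0.18, adjusted p = 3.65e-07), or 1.72-fold and 2.23-fold. At each age 7 of the 8 FABP4 probes were called lower in MS, against 6.61% of all probes at day 90 and 15.2% at day 110. The 8 differences ran from -1.05 to -0.62 at day 90 and from -1.39 to -0.58 at day 110. In all 6 slides that held both breeds at day 110, MS was the lower. The change with age was -0.06 ± 0.17 in LW and -0.43 ± 0.18 in MS, and neither passed the threshold. Scaling to the 75th percentile turned the LW value to 0.26 (adjusted p = 0.213). In LWMS the main probe fell by 0.69 on the log2 scale (-0.69 ± 0.17) with no overlap of the ages, and 3 of 8 probes fell, against 25.7% of all probes. However, scaling to the 75th percentile gave -0.32 (adjusted p = 0.124) and the mean of all FABP4 probes -0.50 (adjusted p = 0.0121).

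At both ages the FABP4 means of the crosses lay between those of the breeds, with 13.99 in LWMS and 13.80 in MSLW at day 90, beside 14.09 in LW and 13.30 in MS. At day 110 the main probe ran from 12.98 to 13.61 (median 13.32) in LWMS, and the 5 MSLW fetuses had 13.65, 13.19, 13.63, 13.37 and 13.86. The group means fell in the order LW 14.03, MSLW 13.54, LWMS 13.29 and MS 12.87, with SDs of 0.33, 0.26, 0.23 and 0.32, and neighbours in this order overlapped.

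FABP5, the binding protein of epidermis that capillary endothelium, macrophages and fat cells also make, was higher in MS fetuses at day 90 than in LW ones. The main probe ran from 14.75 to 15.03 (median 14.83) in LW and from 15.20 to 15.81 (median 15.42) in MS, with no overlap. The difference was 0.56 ± 0.09 (1.48-fold, adjusted p = 2.11e-06), it was higher in MS in 8 of 8 slides, and all 5 probes gave 0.55 to 0.57. At day 110 the probes differed by -0.13 to -0.05 and none was called. The change with age was -0.14 ± 0.09 in LW, -0.25 ± 0.10 in MSLW, -0.63 ± 0.09 in LWMS and -0.81 ± 0.09 in MS. The LWMS and MS falls were called at all 5 probes, against 25.7% and 28.1% of all probes, and the ages did not overlap in either. Of the 5 probes, 4 read a common stretch. The probe among these that only the study's lists name is not further support, here or for the day 90 difference. The MS change less the LW change was -0.67 ± 0.13 (adjusted p = 0.000238), against 3.39% of all probes called in that direction.

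The FABP5 fall depended on the scaling. With each array scaled to its 75th percentile, the MS change was -0.15 (adjusted p = 0.171), the LWMS change -0.11 (adjusted p = 0.285) and the LW and MSLW changes 0.24 and 0.27, so that their sign turned. The difference between the MS and LW changes was then -0.39 (adjusted p = 0.0325) and missed the threshold. The day 90 breed difference stayed at 0.55 (adjusted p = 5.63e-06). Among the 10% brightest probes, to which the 3 FABP genes, LPL and CD36 belong at their main probes, the median MS change with age was -0.13 after quantile normalization and 0.42 after scaling to the 75th percentile. Over all probes these medians were 0.03 and 0.13.

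FASN encodes fatty acid synthase, which makes palmitate. At its main probe LW fetuses ran from 12.47 to 13.03 (median 12.81) at day 90 and from 11.84 to 12.70 (median 12.24) at day 110. MS fetuses ran from 12.25 to 12.82 (median 12.63) and from 11.61 to 12.56 (median 12.10). The ages overlapped in both breeds. FASN changed by -0.51 ± 0.12 in LW with an adjusted p of 0.000319, by -0.50 ± 0.13 in MS with one of 0.000652, and by -0.42 ± 0.13 in LWMS and -0.56 ± 0.14 in MSLW. The other 3 FASN probes, a pair of which are identical, did not pass the threshold in any genotype and gave -0.27 to -0.15 in LW and -0.27 to 0.49 in MS, where 0.49 is the value of the A_72_P175196 probe printed above. That probe was near background, being well above it on 6 of 8 MS arrays at day 90 and 4 of 7 at day 110, and it enters the mean of all FASN probes. The mean of all FASN probes and the scaling to the 75th percentile each ended the call in all 4 genotypes. No FASN probe differed between the breeds past the threshold.

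SCD encodes stearoyl-CoA desaturase, which turns saturated into monounsaturated fatty acids. In MS its main probe ran from 9.53 to 10.42 (median 9.84) at day 90 and from 8.47 to 9.95 (median 9.09) at day 110. In LW it ran from 9.45 to 10.50 (median 10.12) and from 8.60 to 10.26 (median 9.45). It fell in MS by 0.81 on the log2 scale (-0.81 ± 0.20, adjusted p = 0.000505), and 9 of 10 SCD probes fell there, against 28.1% of all probes. The change was -0.55 ± 0.19 in LW (adjusted p = 0.0128) and -0.56 ± 0.20 in LWMS (adjusted p = 0.0124), and with the slide as a block both passed the threshold (adjusted p = 0.00881 and 0.00932). In LW and in LWMS, 15 of 17 alternatives left the fall uncalled, among them the mean of all SCD probes (adjusted p = 0.025 and 0.0111). In MSLW the change was -0.26 ± 0.23. The MS and LW changes differed by -0.26 ± 0.28 (adjusted p = 0.597), so the SCD fall was not shown to differ between the breeds.

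DGAT2 encodes the enzyme of the last step of triglyceride synthesis. Its main probe changed by 0.24 ± 0.24 in MS, -0.05 ± 0.23 in LW, 0.09 ± 0.26 in MSLW and 0.50 ± 0.23 in LWMS, and none of these passed the threshold. At day 110 it ran from 5.73 to 7.74 in LWMS and from 6.10 to 7.21 in MS. Of the 3 DGAT2 probes, 1 rose in MS, by 0.86 ± 0.21 (adjusted p = 0.000372), against 28.6% of all probes. No DGAT2 probe differed between MS and LW past the threshold, with values of -0.17 to -0.03 at day 90 and 0.26 to 0.52 at day 110.

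ADIPOQ encodes the fat cell hormone adiponectin, and its main probe had the largest SD of the 10 main probes in 6 of the 8 groups. At day 90 it ran from 8.78 to 10.62 (median 9.39) in LW and from 7.76 to 10.41 (median 8.98) in MS. At day 110 it ran from 7.53 to 10.15 (median 8.40) in LW, from 6.68 to 7.89 (median 7.55) in MS and from 5.87 to 10.45 (median 8.54) in LWMS. The 5 MSLW fetuses had 10.10, 10.03, 7.33, 6.40 and 9.98. The MS fetuses of day 110 lay close together, with a SD of 0.42 against 0.85 in LW, 1.64 in LWMS and 1.77 in MSLW. ADIPOQ fell with age in MS by 1.60 on the log2 scale (-1.60 ± 0.53, adjusted p = 0.00646), and 3 of 9 probes fell there, by 1.52 to 1.60, against 28.1% of all probes. With the slide as a block the main probe gave -1.53 with an adjusted p of 0.0105. The changes in LW (-1.03 ± 0.49), MSLW (-0.83 ± 0.58) and LWMS (-0.56 ± 0.51) did not pass the threshold.

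The ADIPOQ probes did not give the same breed difference. At day 110 the O15012 probe was lower in MS by 1.70 on the log2 scale (-1.70 ± 0.47, adjusted p = 0.00266) and the main probe gave -1.14 ± 0.51 (adjusted p = 0.0697). The A_72_P503732 probe, which shares the 26 bases printed above with the main probe, gave -0.40 ± 0.47. The other 6 probes gave from -1.05 to 0.61. The probe at 0.61 was well above background on 0 of 7 MS arrays and 1 of 9 LW arrays of day 110, so that its value there rests on background.

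**Figure D3:**
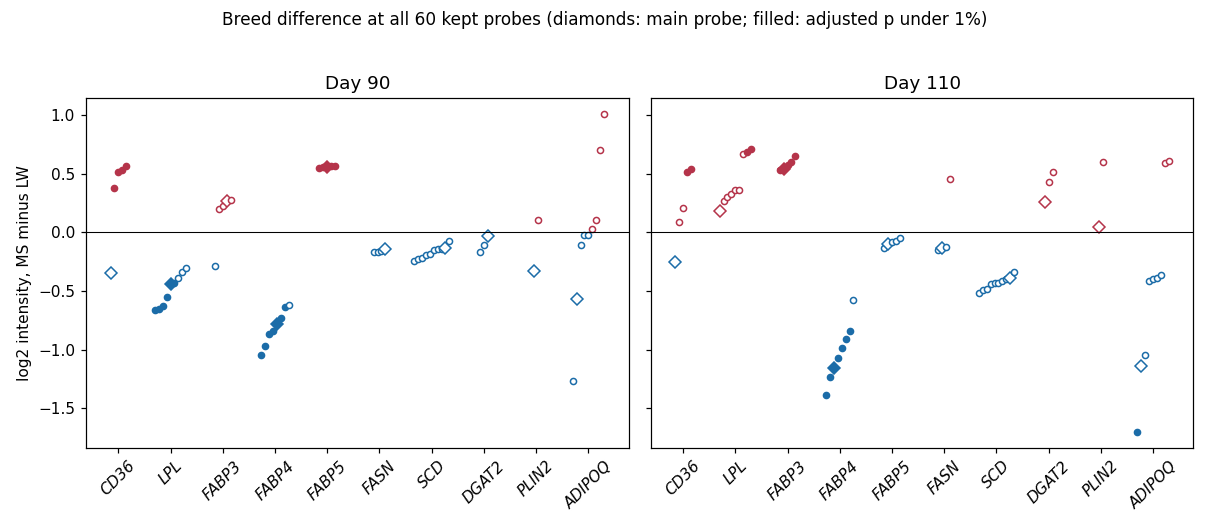
Difference in log2 intensity between MS and LW fetuses (vertical axis) at each of the 60 kept probes, by gene, at day 90 (left) and day 110 (right), with diamonds for main probes and filled symbols where the adjusted p was under 1%. FABP4 probes lie below 0 at both ages, the 5 FABP5 probes lie at 0.55 to 0.57 at day 90 only, FABP3 probes lie at 0.53 to 0.65 at day 110, and CD36 and ADIPOQ probes lie on both sides of 0.

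The crosses and the parental models showed few differences in these genes. LWMS and MSLW are reciprocal crosses that differ in the breed of the sow and in which breed gave the maternal and the paternal copy of each autosomal gene. They also differ in the breed of their mitochondria and, all fetuses being male, of their X and Y chromosomes. Between them no member probe was called at day 90 (0.5% of all probes) or at day 110 (0.912%) in limma. At an unadjusted p under 0.05 were 3 of the 10 main probes at day 90, against 4051 of all 42435 probes, and 1 at day 110, against 6351. The largest main probe difference at day 110 was that of FABP3, -0.63 ± 0.18 (unadjusted p = 0.00111, adjusted p = 0.046), and at day 90 those of CD36, -0.50 ± 0.22, and ADIPOQ, -0.48 ± 0.51. No member probe was called for the mean of the crosses against the mean of the breeds, either at day 90 (0.0495% of all probes) or at day 110 (0.0778%). There, 2 and 1 main probes had an unadjusted p under 0.05, against 1541 and 2979 of all 42435 probes. In the model with maternal and paternal genotype, FABP5 was the only member called for the maternal genotype by age term, in which its change with age was lower with a MS sow by 0.52 (-0.52 ± 0.09, adjusted p = 0.000137). All 5 FABP5 probes passed, against 1.89% of all probes in that direction, though the list-only probe among them is not further support. Scaling to the 75th percentile gave -0.38 (adjusted p = 0.00635) at the main probe. No member was called for the paternal genotype by age term (0.462% of all probes), where FABP3 gave 0.29 ± 0.17 and LPL 0.29 ± 0.13. For that term 1 main probe had an unadjusted p under 0.05, against 5992 of all 42435 probes.

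The rest of the pathway was read from a list of 92 other genes, of which 69 had a kept probe. In LW 25 rose and 16 fell with age, in MS 31 rose and 17 fell, and in the breed comparison of day 110 MS exceeded LW in 14 genes and lay below it in 7. Of all probes, 21.8% rose and 23.5% fell in LW, 28.6% rose and 28.1% fell in MS, and 13.7% were higher and 15.2% lower in the breed comparison. Among the genes named below, AQP7, CEBPD and RETN were kept through day 110 groups only, and FABP6 through day 90 groups only. Their called changes with age are counted here but are not further support. The median change was 0.08 in LW and 0.23 in MS, beside 0.03 over all probes in each. The MS age change less the LW age change was called higher in 4 of the 69 genes, against 2.56% of all probes. These were 2 of uptake, 1 of synthesis and 1 of lipolysis. In 2 genes, 1 of uptake and 1 of triglyceride assembly, it was called lower, against 3.39% of all probes.

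**Figure D4:**
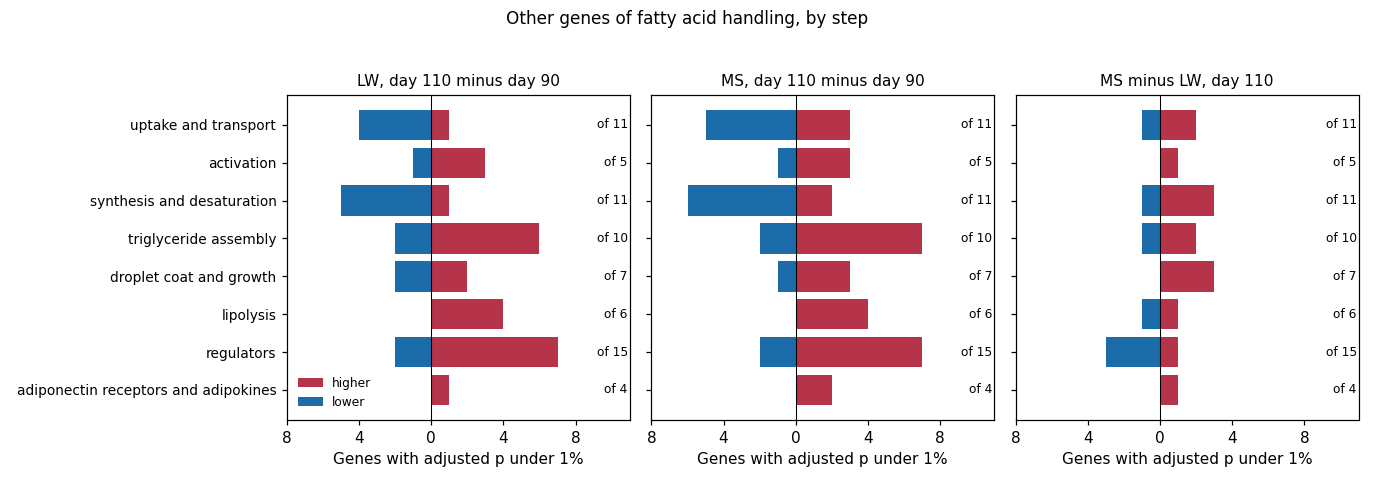
Number of other genes of fatty acid handling (horizontal axis) that were higher (red, right) or lower (blue, left) at an adjusted p under 1%, by step of the pathway, with the number tested at the right of each panel. In each breed 4 of 6 lipolysis genes rose and 0 fell, and 5 of 11 synthesis genes in LW and 6 of 11 in MS fell. AQP7 is among the 4, but it was kept through its day 110 signal only, so its rise is not further support. Of all probes, 21.8% rose and 23.5% fell in LW, and 28.6% rose and 28.1% fell in MS.

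Of 11 other genes of uptake and transport, 4 fell and 1 rose in LW (median -0.15), and 5 fell and 3 rose in MS (median -0.57). Of all probes, 23.5% fell and 21.8% rose in LW, and 28.1% fell and 28.6% rose in MS. SLC27A1, a fatty acid transport protein of muscle, rose by 1.01 ± 0.10 in LW and 1.59 ± 0.10 in MS and was higher in MS at day 110 by 0.69 ± 0.10. The larger rise in MS was called (0.58 ± 0.14, adjusted p = 0.00369). SLC27A6 rose in MS by 0.95 ± 0.26. FABP7, a binding protein best known from brain, fell in MS from a mean of 6.49 to 4.64, where 4 of 7 arrays of day 110 were well above background. Its LW means were 5.4 at day 90 and 5.26 at day 110. FABP6 also fell in MS, by 1.67 (-1.67 ± 0.34), and was well above background on 1 of 7 arrays at day 110. Of the enzymes that attach coenzyme A to fatty acids, ACSL1 rose by 1.75 ± 0.11 in LW and 1.19 ± 0.12 in MS. ACSS2, the acetate enzyme, rose by 1.25 ± 0.10 and 1.28 ± 0.11. ACSL5 fell by 0.32 in LW (-0.32 ± 0.08) and 0.57 in MS (-0.57 ± 0.08).

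In synthesis, 5 of 11 genes fell and 1 rose in LW, and 6 fell and 2 rose in MS, where 23.5% and 28.1% of all probes fell. ELOVL6, which lengthens palmitate to stearate, fell by 1.21 in LW (-1.21 ± 0.17) and 1.17 in MS (-1.17 ± 0.18), and SCD5, a second desaturase, fell in MS by 1.11 (-1.11 ± 0.24). ACACB rose by 1.84 ± 0.15 in LW and 2.68 ± 0.16 in MS and was higher in MS at day 110 by 1.1 ± 0.16. Its product is the acetyl-CoA carboxylase form at the mitochondrial membrane, known for the control of fatty acid entry into mitochondria rather than for bulk synthesis. ME1, malic enzyme, a source of NADPH, was higher in MS at day 110 by 0.96 ± 0.18.

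In triglyceride assembly, LPIN1, the main phosphatidate phosphatase of muscle, rose by 1.95 ± 0.26 in LW and 2.69 ± 0.28 in MS. LPIN2, a related phosphatase, fell by 1.1 in LW (-1.1 ± 0.08) and 1.54 in MS (-1.54 ± 0.08). AGPAT6, a glycerol-3-phosphate acyltransferase, rose by 1.15 ± 0.12 in LW, and AGPAT4 fell by 0.94 in LW (-0.94 ± 0.09) and 1.14 in MS (-1.14 ± 0.10). Among droplet genes, FITM2 rose by 1.78 ± 0.18 in LW and 1.24 ± 0.19 in MS. CIDEC, the droplet fusion protein of fat cells, rose by 1.47 ± 0.32 in LW and 1.11 ± 0.34 in MS, whereas PLIN1, the coat protein of fat cell droplets, fell in MS by 1.16 (-1.16 ± 0.26). CIDEA fell in LW by 0.57 (-0.57 ± 0.13) and was higher in MS at day 110 by 1.07 ± 0.14.

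In lipolysis, PNPLA2, the triglyceride lipase of droplets, rose by 1.58 ± 0.16 in LW and 2.46 ± 0.17 in MS, and the larger rise in MS was called (0.89 ± 0.23, adjusted p = 0.00661). AQP7, a glycerol channel, gave 2.80 ± 0.31 in LW and 3.43 ± 0.33 in MS, but at day 90 only 1 of 8 LW and 2 of 8 MS arrays measured it. PNPLA3 was lower in MS at day 110 by 1.14 (-1.14 ± 0.24). Of the regulators, MLXIPL, the carbohydrate response factor, rose by 1.80 ± 0.17 in LW and 2.06 ± 0.18 in MS, and CEBPD gave 2.50 ± 0.33 and 2.48 ± 0.35 with 2 of 8 LW and 4 of 8 MS arrays of day 90 measured. SREBF2, the sterol response factor, fell by 0.79 in LW (-0.79 ± 0.11) and 0.77 in MS (-0.77 ± 0.11). INSIG2, which holds the sterol response factors back, was lower in MS at day 110 by 1.65 (-1.65 ± 0.29), with 5 of 7 MS arrays measured. PPARG, the fat cell regulator, gave -0.16 ± 0.14 in LW and -0.16 ± 0.15 in MS. ADIPOR2, an adiponectin receptor, rose by 1.05 ± 0.11 in LW and 1.36 ± 0.12 in MS and was higher in MS at day 110 by 0.62 ± 0.12. RETN, resistin, rose in MS by 1.05 ± 0.34, with 6 of 8 arrays of day 90 measured.

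Cell type markers moved with age beside these genes. All 10 skeletal muscle fibre markers were measured, with 8 rising in LW and 9 in MS, against 21.8% and 28.6% of all probes. Their mean level ran from 15.95 to 16.23 in LW at day 90 and from 16.61 to 16.87 at day 110, and in MS from 16.18 to 16.47 and from 16.96 to 17.11. Of 8 endothelial markers 7 were measured, of which 5 fell and 1 rose in each genotype, and in LW the mean level lay at 11.68 to 11.98 at day 90 and 11.16 to 11.64 at day 110. In MS these levels were 11.62 to 12.01 and 10.82 to 11.16. All 5 measured of 6 preadipocyte and stromal markers and 5 of 7 macrophage markers fell in each genotype, where between 23.5% (LW) and 28.1% (MS) of all probes fell. Macrophage markers ran from 9.24 to 9.72 and then from 8.22 to 9.34 in LW, and from 9.33 to 9.74 and then from 8.39 to 8.98 in MS. At day 110 stromal markers lay at 11.18 to 11.66 in LW fetuses, above the 10.37 to 10.81 of MS fetuses, with no overlap. At day 90 they overlapped, at 12.28 to 12.46 in LW and 12.27 to 12.68 in MS.

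Of 10 fat cell markers, 7 had a kept probe, ADIPOQ and FABP4 included. CFD and ADIG had no probe with that symbol, and LGALS12 had 2 probes that were not kept. Their mean level ran at day 110 from 7.34 to 8.17 in LW, 7.24 to 7.70 in MS, 7.19 to 8.85 in LWMS and 7.32 to 8.43 in MSLW. In MS 3 of the 7 fell with age (ADIPOQ, PLIN1 and PCK1) and 2 rose (CIDEC and RETN), where 28.1% of all probes fell and 28.6% rose. RETN was kept through day 110 groups only, so its rise is not further support. The median of the 7 in MS was -0.43 beside 0.03 over all probes. In LW and in MSLW 1 of the 7 rose and 0 fell, and in LWMS 1 rose and 1 fell. Of 5 red blood cell markers 2 were measured and none was called. The part of these cell types in the changes above was not tested.

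The genes with the most similar course over the 8 group means, each centred on its own mean, were compared among 9651 other genes by the root mean square difference. DNAJB5 (0.09), KCNC4 (0.12) and PTGR2 (0.12) came closest to LPL, whose own means spanned 2.24. ADPRHL1 (0.10), EPB42 (0.14) and ACAA2 (0.16), a mitochondrial thiolase of fatty acid oxidation, came closest to FABP3. RBKS (0.08), FBXO3 (0.09) and DCAF11 (0.10) came closest to PLIN2, and DCAF11 was also closest to CD36 (0.15), before UBXN6 and LRRC39 (0.16 each). For FABP4 these were BCAT1 (0.09), TSPAN1 (0.11) and ANAPC13 (0.13), and for FABP5 BACE2 (0.07), CAV2 (0.07), a caveolin, and HIVEP2 (0.08). For FASN they were MED12 (0.03), TRIM28 (0.04) and PDCD6 (0.04), for SCD HIRIP3 (0.06), SERINC5 (0.07) and UGCG (0.07), and for DGAT2 NGB (0.05), CAND2 (0.06) and ABT1 (0.07). No gene came closer to ADIPOQ, whose means spanned 2.18, than LRRC71 (0.21) and ACAP3 (0.21), followed by SLITRK6 (0.22).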

How the data were processed

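RNA of 61 fetuses was labelled with Cy3 and hybridized to a porcine oligonucleotide array. The authors deposited, per array, the scanner intensity of each spot (Agilent Feature Extraction 10.10.1.1) without normalization between arrays. They also deposited a table of quantile-normalized log2 values for 44368 spots, used here as an alternative only. Its rows were matched to spots by row number, and its values differed from the quantile-normalized median intensity by a median of 0.0228.

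Controls were left out (60306 spots remained), non-uniform spots, 4 to 802 on an array, were treated as missing, and the background-corrected intensity was quantile normalized and log2 transformed. Spots of a probe were averaged, and the 42435 probes kept were those that in 1 group or more passed the background call on 80% or more of its arrays. Per array, 34341 to 45672 probes were well above background and at most 2 spots were saturated, and the number of arrays limits the precision. Symbols of kept probes came from the study's lists (1738), the array (17592) or RefSeq accessions (402).

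The 8 groups were fitted with limma 3.58.1 in R 4.3.3, with Benjamini-Hochberg adjustment over all kept probes, two-sided, called at 1%. Maternal and paternal genotype by age came from a model with age, both parental genotypes and their pairwise interactions. The sow, a random effect in the study, was not given in the sources used here. The 8 slides each held 6 to 8 groups and were tested as a block. Members, gene lists and markers were chosen with earlier results of these data known. Named pathway genes are, per step and direction, at most the 2 with the largest called change with age in LW or MS, or difference at day 110. In simulated data with 200 of 42435 probes changed by 1, 83.5% were recovered for the LW age change. The share was 66% for the difference in age change and 74.5% for the crosses at day 110. For the mean of the crosses against that of the breeds, with only LWMS changed, it was 64.5% at day 90 and 62.5% at day 110. The simulated probes were independent, without sow or slide effects, and far fewer changed than were called here with age. Recovery in these data was therefore not measured. Alternatives changed the signal, background correction, scaling, filter, marked spots, slide, samples and probe choice. Probe positions in the genome were not analysed here.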

Additional observations from a re-analysis of the deposited data

Results flagged for a closer look

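Of 80 sets of fetuses (10 main probes in 8 groups), 1 held a fetus far from the others. The highest LW fetus of day 90 in PLIN2 lay at 10.17, and the next at 9.79 or below. Chance alone is expected to mark about 1 in 20 such sets. FABP5 changed differently with age in MS and LW (-0.67 on the log2 scale, adjusted p = 0.000238 in limma) and with a MS and a LW sow (-0.52, adjusted p = 0.000137). Both tests are of the difference itself, and the first was not called after scaling to the 75th percentile.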

How the results depend on the processing

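Under the alternatives tried, no member's called value changed direction. Of the values per gene and comparison, 2129 kept their side of the threshold, 24 lost and 17 gained a call, and of the counts of called genes 205 stayed within 1.5 times and 12 did not. Scaling to the 75th percentile left 4 genes called for the LWMS age change in place of 7, and it moved the median MS change over all probes from 0.03 to 0.13. For MS against LW at day 110, the deposited table, the median signal, normexp and a fit of those groups alone each left 1 gene called (FABP4) in place of 2. For the difference in age change, 2 genes were called in place of 1, LPL joining FABP5, with the deposited table, the median signal, normexp, the mean of all probes, a filter to probes above background on every array, the brightest probe named by the array, and without MSLW replicate 3 of day 110. Leaving out in turn each of the 5 MSLW fetuses of day 110, and MS replicate 3 of day 90, gave 5 to 6 called genes for the age change in LW, 8 to 8 in MS, 7 to 8 in LWMS and 3 to 5 in MSLW, 2 to 3 for MS against LW at day 90, 2 to 2 at day 110, 1 to 2 for the difference in age change, 1 to 1 for maternal genotype by age, and 0 to 0 for the crosses, the mid-parent and the paternal genotype by age. With only the groups compared, CD36 in MS (adjusted p = 0.0117) and PLIN2 in MSLW (adjusted p = 0.0179) lost their age call. The brightest array-named probe and the fit without MS replicate 3 of day 90, the array with the fewest probes above background, were chosen after seeing the data, and the cause of these shifts was not tested. No paired analysis was possible because the replicate numbers were given in accession order only, and the slide, which held several groups, was fitted as a block instead. Scan day could not be fitted as a block, since all arrays were scanned on 1 day.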

Other observations

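In LWMS fetuses of day 110, ADIPOQ was 10.45, 10.40, 9.73 and 9.15 in 4 fetuses and 7.93 or lower in the other 4, and in MSLW it was 9.98 or higher in 3 fetuses and 7.33 or lower in 2. No MS fetus of that age lay above 7.89. The fetus with the highest ADIPOQ of its group was first or second in DGAT2 in 7 of 8 groups and in CIDEC in 7 of 8. For PCK1 this held in 6 of 8 groups, for PLIN1 and LPL in 5 of 8, for FABP4, SCD and LIPE in 4 of 8, for LEP, PPARG and PLIN2 in 3 of 8, for CD36, FABP3 and FASN in 2 of 8 and for FABP5 in 0 of 8. These ranks were chosen after the values were seen and are a description, and how many fat cells each piece of muscle held was not measured.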
